A study of Homo sapiens with 52 samples.

Results

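The genes described here are the protein-coding genes of the cytosolic ribosome, taken by name as the RPL and RPS genes with a number and an optional letter or paralogue suffix together with RPSA, RPLP0, RPLP1 and RPLP2. By this rule 84 of 78894 genes were members, of which 52 encode proteins of the large subunit and 32 encode proteins of the small subunit. Bulk poly-A RNA sequencing had been carried out on 52 samples of the breast cancer cell lines SUM159PT, MDA-MB-231 and HS578T, which the study classes as claudin-low and in which the co-receptor neuropilin-1 (NRP1) was knocked down. Each cell line had 6 groups of 3 samples, except that SUM159PT siNRP1#5 and HS578T shNRP1#3 had 2 samples. The siRNA groups siNT, siNRP1#3 and siNRP1#5 were transfected with 20 nM siRNA and gave RNA after 72 h. Lentiviral vectors based on pLKO.1 delivered the shRNA of the groups shNT, shNRP1#3 and shNRP1#5, which were selected in puromycin and gave RNA 48 h after seeding, with consecutive passages of the transduced cells as replicates. NT stands for a non-targeting sequence. The #5 sequence was the same in siRNA and shRNA form and matches the transmembrane and the soluble form of NRP1, whereas the #3 sequences match the transmembrane form and differ between siRNA and shRNA. Between siRNA and shRNA samples, the delivery, the selection and the hour of harvest all differed.

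The cytosolic ribosome translates nearly all proteins of a cell, and its proteins are needed in matched amounts, one copy of most of them for each particle. Their mRNAs are among the most abundant of a dividing cell, and most of them begin with a cytosine and an unbroken run of pyrimidines, the 5′ terminal oligopyrimidine (TOP) motif, through which the mTOR pathway and the protein LARP1 set their translation and stability. Single ribosomal proteins also have duties outside the particle, such as the binding of MDM2 by RPL5 and RPL11 when ribosome assembly is disturbed, which stabilises p53. Several genes have a paralogue of low or restricted expression, and many carry small nucleolar RNAs (snoRNAs), guides for the modification of ribosomal RNA, within their introns.

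The start sites of the members on which the results below turn are shown first, because the TOP motif is the sequence feature most members share. The windows hold 12 bases before and 18 bases from the transcription start listed in RefSeq (GRCh38.p14), on the strand of the gene, with the run of pyrimidines that begins with a C at the start site in capitals.
RPS12 (chr6:132814557-132814586, + strand): tgcggatgaggcCTCTTTCCCTgccgccgc
RPL3 (chr22:39319606-39319635, - strand): aggccgaccggcCTCTaccggcgggatttg
RPL24 (chr3:101686701-101686730, - strand): ccatgattctctCTTTCTTTTCgccatctt
RPL34 (chr4:108620564-108620593, + strand): ggcttttttcttCCTCTTCCggggacgttg
RPL38 (chr17:74203666-74203695, + strand): ggaagtctcgttCTTTTTCgtccttttccc
RPS27A (chr2:55232676-55232705, + strand): gcggcgttcttcCTTTTCgatccgccatct
RPL11 (chr1:23691794-23691823, + strand): aagctccgctttCTCTTCCTgctctccatc
RPL35 (chr9:124861940-124861969, - strand): cccgcctacttcCTCTTTCCCTCggagcgg
RPLP0 (chr12:120201094-120201123, - strand): cgggcgcgaggcCCTTCTCTCgccaggcgt
RPSA (chr3:39406708-39406737, + strand): cctgccgcctgtCTTTTCCgtgctacctgc
RPS24 (chr10:78033851-78033880, + strand): cgaatcgtggttCTCTTTTCCTCCTTggct
RPL26 (chr17:8383176-8383205, - strand): cagcgtgtagttCTCTTCCCTTTTgcggcc
RPL26L1 (chr5:172958717-172958746, + strand): cttccaggggtcggcgaacgaaacgcggag
RPL32 (chr3:12841548-12841577, - strand): ttacgacccatcagcccttgcgcgccaccg

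Of the 84 members, 67 had a start in the promoter table, and 47 of these (70.1%) had at 1 listed start or more a C followed by 4 bases that were each C or T, read on the strand of the gene and at the start only. The same was found at 5.14% of 27305 genes with a listed start and at 6 of 69 genes (8.70%) of the mitochondrial ribosome. A C at 1 listed start or more was found for 50 of the 67. RPL15, RPL26L1, RPL32, RPL7L1 and RPS27L were among those that had none. The runs of RPL3, with 4 bases, RPS7, with 3 bases, and RPS15, with 1 base, fell short of the motif. RPS27A, RPL34 and RPL11 had the motif at the start shown and lacked it at 1 other listed start or more. No start was listed for RPL23, RPL23A, RPL30, RPL37, RPL39L, RPL3L, RPL5, RPL7, RPL8, RPS15A, RPS2 and RPS20, among others.

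The samples held between 2.53e+07 and 7.20e+07 expected counts, with a median of 4.48e+07. NRP1 was called lower in 11 of 12 knockdown comparisons, with log2 fold changes from -4.88 to -0.70. In HS578T shNRP1#3 it gave -1.59 with an edgeR adjusted p of 0.069. The -0.70 was that of MDA-MB-231 siNRP1#3, where TPM showed no such fall. There NRP1 held a mean of 28.5 TPM (24.8 to 31.3), beside 28.8 TPM (25.6 to 31.6) in siNT. These values sum over the transmembrane and the soluble form. The study reports that by RT-qPCR the transmembrane form was reduced in every line. It also reports the soluble form as the main NRP1 transcript in the #3 samples, whose part in the TPM value was not tested here. VIM, an intermediate filament of mesenchymal cells, ranged from 1311 to 6093 TPM and CDH1, the epithelial cadherin, was at most 3.33 TPM in any sample. CLDN4, a claudin of tight junctions, stood between 62.6 and 226 TPM in every MDA-MB-231 sample, which for this gene goes against the label claudin-low. RNA of another cell line was measured in some libraries. The 27 genes with a mean of 20 CPM (counts scaled to library size) or more in the MDA-MB-231 NT controls and of at most 0.5 in those of the other lines stood in HS578T siNRP1#5 at 16.9%, 13.3% and 8.65% of the level they have in MDA-MB-231 (replicates 1, 2 and 3), and in HS578T siNRP1#3 at 1.57%, 2.24% and 4.78%. Replicate 2 of HS578T siNRP1#5 also held 28 SUM159PT marker genes at 4.87%. Smaller shares were found in MDA-MB-231 shNRP1#3 replicate 3, with HS578T markers at 2.06% and SUM159PT markers at 1.40%, in SUM159PT shNRP1#5 replicate 2, with MDA-MB-231 markers at 1.37%, and in HS578T siNT replicate 3, with MDA-MB-231 markers at 1.28%. After the other line's reads were subtracted, the count of members called was 10 in HS578T siNRP1#5, where it had been 3, and stayed at 2 in HS578T siNRP1#3 and at 0 in MDA-MB-231 shNRP1#3 and SUM159PT shNRP1#5.

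The members made up a large part of the RNA in every sample, with levels that differed between the cell lines. Levels are given as TPM, a unit that corrects for transcript length and library size, and differences between groups as log2 fold changes of edgeR on TMM-scaled counts. Over all samples of a line, the members summed to a median of 26.7% of all TPM in HS578T (21.7% to 30.1%), 19.7% in SUM159PT (15.8% to 30.0%) and 16.6% in MDA-MB-231 (13.7% to 20.4%). Every HS578T sample was therefore above every MDA-MB-231 sample. In MDA-MB-231 the share was 16.2% ± 0.196 (SD, n = 3) in siNT, 17.8% ± 0.869 (SD, n = 3) in siNRP1#3 and 18.9% ± 1.29 (SD, n = 3) in siNRP1#5. The shRNA groups of the same line gave 14.1% ± 0.607 (SD, n = 3) in shNT, 15.0% ± 0.366 (SD, n = 3) in shNRP1#3 and 17.9% ± 0.355 (SD, n = 3) in shNRP1#5. The shNRP1#5 samples all stood above the shNT samples, and the siNRP1#5 samples all stood above the siNT samples. In SUM159PT siNRP1#5 the samples were far apart, at 30.0% in replicate 2 and 21.6% in replicate 3, beside 21.5% ± 1.41 (SD, n = 3) in siNT. Replicate 2 also had less mitochondrially encoded RNA, 3.00% of TPM against 5.21% in replicate 3, and its part in the difference was not tested. In bulk RNA, fewer cells of a type and less RNA per cell cannot be told apart.

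**Figure D1:**
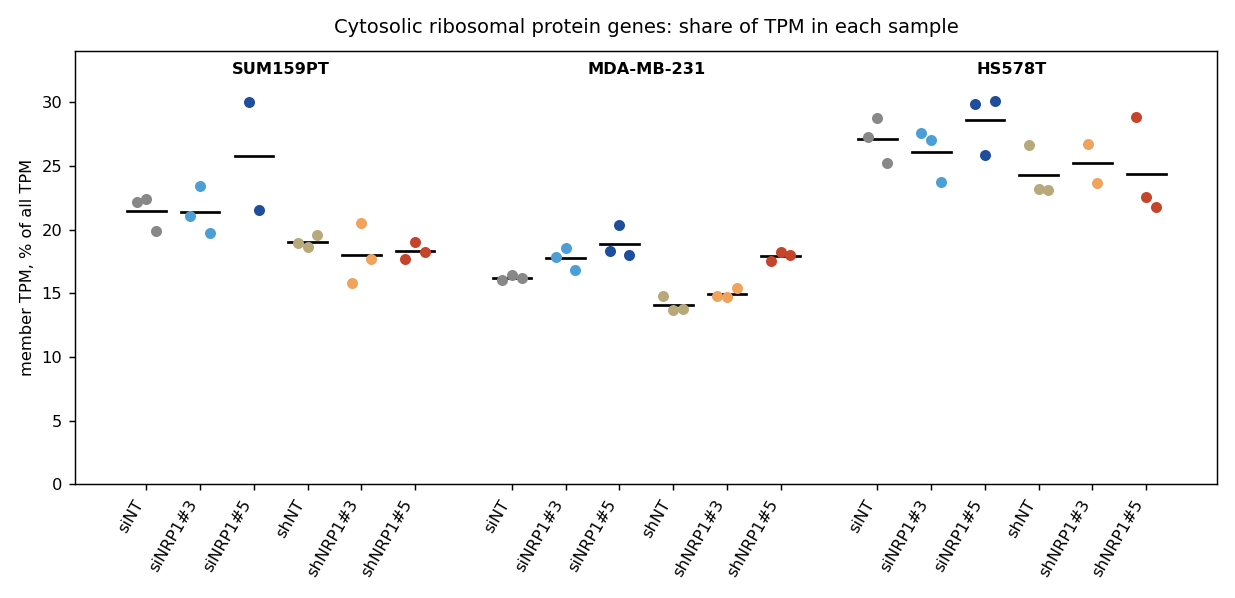
Share of all TPM taken by the 84 ribosomal protein genes (y axis, percent) in each of the 52 samples, by group on the x axis and grouped by cell line. Points are samples and bars are group means. The HS578T samples lie between 21.7% and 30.1% and the MDA-MB-231 samples between 13.7% and 20.4%, and SUM159PT siNRP1#5 replicate 2, at 30.0%, stands apart from replicate 3.

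Most members were abundant. The mean over all samples was above 500 TPM for 77 members and above 1000 TPM for 74, with a median of 2376 TPM. RPS2, a small subunit protein near the mRNA entry channel, had the highest mean (6811 TPM), followed by RPL8, RPS18, RPL35 and RPL15. The lowest were the paralogues RPL3L and RPL10L, known from striated muscle and testis, which did not exceed 0.25 and 0.39 TPM in any sample; neither passed the filter on low counts, which left 82 members in each test. RPL39L, RPS27L and RPL26L1 were the next lowest, at means of 57.0, 90.3 and 99.7 TPM. Processed pseudogenes of the members, 1633 in the table, took 0.522% to 1.56% of TPM. For 8 members the pseudogenes held counts above 10% of the member's own, with 28.0% for RPL23A, 21.8% for RPS2, 16.5% for RPL36A and 14.3% for RPL7, so that reads shared with these copies make the levels of these genes uncertain. No call of a gene named here was lost when the pseudogene counts were added to their member. Group means of single members spread over the 18 groups by 1.50-fold for RPL10A, the most even, and by 18.5-fold for RPL39L, the least even.

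Between the cell lines, compared in the NT controls with siNT and shNT averaged, most members were highest in HS578T. Of 82 members, 77 were higher and 2 lower in HS578T than in MDA-MB-231 (70.2% of all genes were called in this comparison, 34.9% higher and 35.4% lower), with a median log2 difference of 1.26 over the members beside 0.00 over all genes. SUM159PT exceeded MDA-MB-231 in 65 members and fell below it in 3, with a median of 0.80 beside 0.06 over all genes (59.4% of all genes called, 31.8% higher and 27.6% lower). HS578T exceeded SUM159PT in 51 members and was below it in 5, with a median of 0.57 beside -0.09 over all genes (63.5% called, 29.8% higher and 33.7% lower). The 3 comparisons share their control samples in pairs. The TPM scale gave smaller differences. On it the median log2 ratio over genes at 1 TPM or more was -0.73 for HS578T against MDA-MB-231, -0.31 for SUM159PT against MDA-MB-231 and -0.41 for HS578T against SUM159PT, and the medians of the members were 0.58, 0.46 and 0.19, which is 1.31, 0.77 and 0.61 above those of the genes. In TPM 67 of 82 members were higher in HS578T than in MDA-MB-231 and 15 were lower, among them 10 that edgeR called higher, such as RPL39L, RPL38 and RPL14. Ordered by mean TPM, 34 members ran from HS578T over SUM159PT to MDA-MB-231 and 23 had SUM159PT first and MDA-MB-231 last.

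RPS20, a protein of the head of the small subunit, had the largest difference between HS578T and MDA-MB-231. Its siNT samples held 7068, 8222 and 7043 TPM in HS578T, 2893, 3234 and 3073 TPM in SUM159PT and 1220.0, 1319 and 1456 TPM in MDA-MB-231. No values of the lines overlapped, and HS578T was higher than MDA-MB-231 by 3.03 on the log2 scale (SE 0.15, edgeR adjusted p = 4.11e-21), while the ratio of the mean TPM of the NT controls was 4.89, or 2.29 on the log2 scale. RPL10, the protein whose loading completes the large subunit, stood at 2180.4, 2169 and 1977 TPM in the siNT samples of MDA-MB-231, against 6264, 7574 and 5798 TPM in SUM159PT and 5195, 5149 and 5046 TPM in HS578T. It differed by 2.19 between SUM159PT and MDA-MB-231, while the difference between HS578T and SUM159PT was 0.07 (SE 0.14, edgeR adjusted p = 0.682). RPLP2, one of the acidic stalk proteins that recruit elongation factors, was higher in HS578T than in SUM159PT by 2.02, and RPL17 was higher in SUM159PT than in MDA-MB-231 by 1.91. RPS24, one of the genes mutated in Diamond-Blackfan anaemia, ran the other way. It was lower in HS578T than in SUM159PT and MDA-MB-231, with log2 differences of -1.30 and -0.61.

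**Figure D2:**
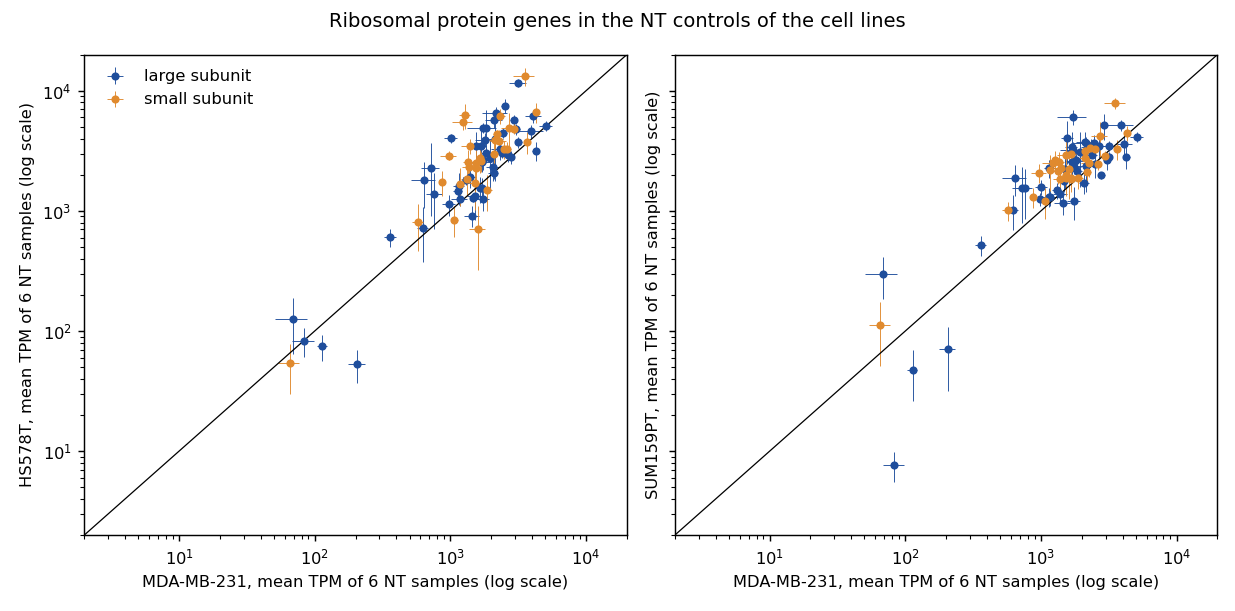
Mean TPM of the 82 ribosomal protein genes above 1 TPM (blue for the large and orange for the small subunit) in the 6 NT samples of HS578T (left, y axis) and SUM159PT (right, y axis) against MDA-MB-231 (x axis), all on log scales, with lines of ± 1 SD and the diagonal of equal levels. Most genes lie above the diagonal in both panels, and the lowest point on the right is RPL39L.

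Paralogues and partner genes are set side by side here. RPL39L, the paralogue of the exit tunnel protein RPL39, held 6.77, 10.8 and 9.80 TPM in SUM159PT siNT, 89.1, 87.0 and 107 TPM in MDA-MB-231 siNT and 100, 107 and 104 TPM in HS578T siNT. SUM159PT was below both other lines without overlap, and HS578T exceeded it by 3.80 on the log2 scale, a fold of 13.9 (edgeR adjusted p = 6.94e-21). Its partner RPL39 gave 0.41 in the same comparison. RPL22L1, the paralogue of RPL22, was highest in SUM159PT, with 2.29 against MDA-MB-231 and -0.89 for HS578T against SUM159PT, where RPL22 itself gave 0.70 and 0.35. RPL7L1, a nucleolar relative of RPL7, was lower than in MDA-MB-231 in both other lines, at -1.41 for HS578T and -1.37 for SUM159PT, while RPL7 was higher by 2.26 and 1.37. RPL26L1, the paralogue of RPL26, was lower in SUM159PT than in MDA-MB-231 (-0.97). RPS27L, a p53 target and relative of RPS27, was lower in HS578T than in SUM159PT, at -0.61.

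The non-targeting controls themselves differed. In MDA-MB-231, 37 members were lower and 0 higher in shNT than in siNT (9.85% of all genes were called lower and 10.7% higher), and 81 of 82 were on the lower side, with a median of -0.36 beside -0.01 over all genes. In SUM159PT 15 members were lower and 1 higher (8.45% and 5.96% of all genes), with a median of -0.29 beside -0.03 over all genes, and in HS578T 18 were lower and 3 higher (8.8% and 9.14%), with a median of -0.20 beside 0.00 over all genes. Delivery, selection and time of harvest cannot be told apart here. RPL26, which lies near the exit tunnel, held 6557, 6726 and 3598 TPM in HS578T siNT and 2151, 2093 and 2469.9 TPM in shNT, without overlap. It was lower in shNT in each line, at -1.31 in HS578T, -1.22 in SUM159PT and -0.51 in MDA-MB-231 (edgeR adjusted p = 0.00761, 0.0205 and 0.00385). RPL7 and RPL34, both of the large subunit, fell by comparable amounts in HS578T (-1.30 and -1.17) and SUM159PT (-1.25 and -1.06). The largest of these decreases in SUM159PT were those of RPL31 (-1.45), RPS27L (-1.39) and RPL36A (-1.38). In MDA-MB-231 they were those of RPL10 (-0.81) and RPLP0 (-0.79).

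A few members were higher in shNT. RPS26, a protein of the mRNA exit channel, held 485, 514 and 632 TPM in HS578T siNT and 747, 1239 and 1229 TPM in shNT, without overlap, and rose by 0.97 (SE 0.25, edgeR adjusted p = 0.0144). RPS4X and RPS15 rose in HS578T by 0.64 and 0.63, and RPL7L1 rose in SUM159PT by 1.15. These counts rested on single libraries to a large degree. With 1 library left out, the count in SUM159PT (16) came to 6, 7 and 2 without shNT replicates 1, 2 and 3, and to 3 and 9 without siNT replicates 1 and 2. In HS578T (21) it came to 3 and 6 without shNT replicates 2 and 3 and to 7 and 2 without siNT replicates 1 and 2, and in MDA-MB-231 (37) to 23 and 17 without shNT replicates 2 and 3 and to 21 without siNT replicate 2. The calls of RPL7, RPS26, RPS4X and RPS15 in HS578T, and of RPL26, RPL7, RPL36A, RPS27L and RPL7L1 in SUM159PT, were each lost without 1 library or more, and RPL34 in SUM159PT was lost without shNT replicate 3. With the other line's reads subtracted, 18 members were called in HS578T and the call of RPS15 was lost.

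Under siNRP1#3, few members were called lower, in no line a larger share than that of all genes called lower. The group as a whole stayed near its control in SUM159PT and HS578T. In SUM159PT 4 members were lower and 0 higher (8.66% of all genes were called, 3.16% higher and 5.5% lower), with a median of -0.04 beside -0.01 over all genes. With the replicate number as a block, 6 members were called in SUM159PT. In HS578T 1 was lower and 1 was higher (4.65% of all genes were called, 2.31% higher and 2.34% lower), with a median of 0.00 beside 0.03 over all genes. MDA-MB-231 had 22 members higher and 3 lower (25.7% of all genes were called, 11.4% higher and 14.3% lower), with a median of 0.22 beside -0.01 over all genes. In TPM, 38 of 82 members of this line lay wholly above siNT and 8 wholly below, beside 18.3% and 21.4% of genes at 1 TPM or more. RPS2 was the one member called lower in all 3 lines. It held 9436, 7251 and 7836 TPM in SUM159PT siNT and 2352, 3682 and 2298 TPM in siNRP1#3, 4036, 4361 and 3757 TPM and 2275, 2228 and 2259.7 TPM in MDA-MB-231, and 13910.0, 15779 and 15137 TPM and 6085, 7068 and 6821 TPM in HS578T. In no line did the groups overlap. The log2 fold changes were -1.68 (SE 0.23, edgeR adjusted p = 0.00046), -0.79 (SE 0.15, adjusted p = 0.000778) and -1.18 (SE 0.26, adjusted p = 0.0166). The calls in SUM159PT and MDA-MB-231 were kept whichever library was left out, and that in HS578T was lost without siNRP1#3 replicate 1 or 2 or siNT replicate 2 or 3, with adjusted p up to 0.081.

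RPL3, which sits next to the peptidyl transferase centre, fell from 1927, 2272 and 2077 TPM to 1329, 1282 and 1209 TPM in SUM159PT (log2 fold change -0.86, SE 0.19, edgeR adjusted p = 0.0107). It also fell in MDA-MB-231, from 1929, 2043 and 1914 TPM to 1508, 1574 and 1531 TPM (-0.30, adjusted p = 0.0349), and gave -0.48 in HS578T (adjusted p = 0.18). The call in SUM159PT was lost without siNRP1#3 replicate 3 (adjusted p = 0.059), and in MDA-MB-231 that of RPL3 was lost whichever library was left out except siNT replicate 1, with adjusted p up to 0.13. RPS12, a protein of the beak of the small subunit, fell in SUM159PT from 2832, 3357 and 2852 TPM to 1237, 1694 and 1134 TPM (log2 fold change -1.27, SE 0.28, edgeR adjusted p = 0.0107), a call that was lost without siNRP1#3 replicate 1 or 3. Its difference was -0.14 in MDA-MB-231 and -0.29 in HS578T, and the siNRP1#3 effect on RPS12 differed between the 3 lines (edgeR F test on 2 degrees of freedom, adjusted p = 0.0232). For RPS2 and RPL3 the same F test gave adjusted p of 0.207 and 0.309. RPS12 was the only member past the threshold in that test, beside 3.42% of all genes.

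**Figure D3:**
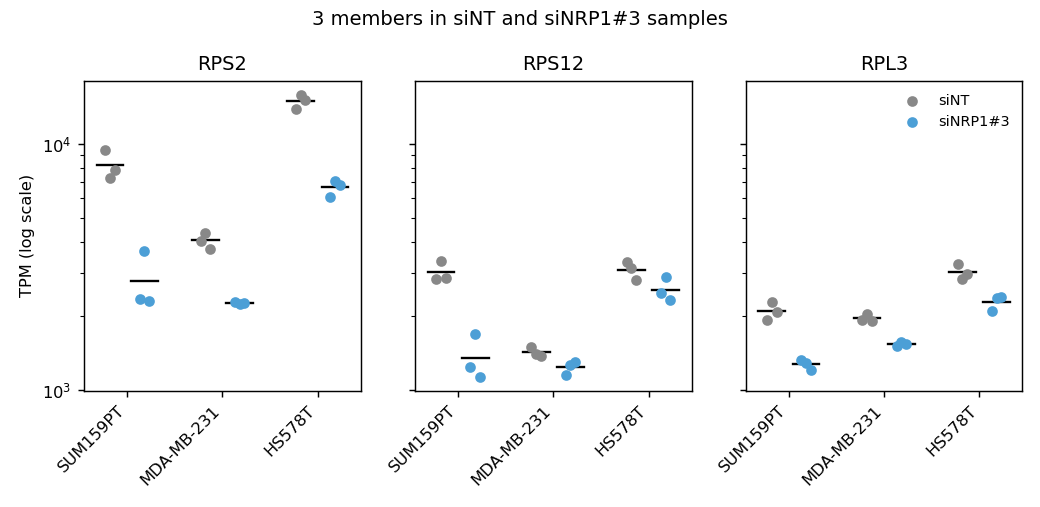
TPM (y axis, log scale) of RPS2, RPS12 and RPL3 in siNT and siNRP1#3 samples of each cell line (x axis). Points are samples and bars are group means. RPS2 in siNRP1#3 lies below siNT in every line, and RPS12 is separated from siNT most widely in SUM159PT.

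RPS2, RPS12 and RPL3 each held snoRNA genes within their bounds and on the same strand, namely SNORA10 and SNORA64 in RPS2, SNORA33, SNORD100 and SNORD101 in RPS12, and SNORD43, SNORD83A and SNORD83B in RPL3. Such genes lay within 28 of the 84 members. In SUM159PT siNRP1#3, 4 of 28 snoRNA hosts and 0 of 54 other members tested were called lower, and the medians were -0.08 and -0.01. In MDA-MB-231 siNRP1#3 3 hosts were lower and 6 higher, against 0 lower and 16 higher among the others. These splits were made after the values were seen and were not tested. The siNRP1#5 comparison shares the siNT samples. RPS2 gave 0.35, 0.34 and -0.20 under siNRP1#5 in SUM159PT, MDA-MB-231 and HS578T, none past the threshold.

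Among the members that rose under siNRP1#3, RPL26L1 was called in 2 lines. It held 98.2, 95.4 and 64.6 TPM in HS578T siNT and 187, 177 and 137 TPM in siNRP1#3, without overlap (log2 fold change 0.92, SE 0.21, edgeR adjusted p = 0.0203), and 109, 115 and 99.1 TPM and 159, 193 and 137 TPM in MDA-MB-231, again without overlap (log2 fold change 0.65, SE 0.16, edgeR adjusted p = 0.00674). In HS578T the call was lost without siNRP1#3 replicate 1, siNT replicate 1 or siNT replicate 3. RPL26 itself, with its run of 12 pyrimidines at the start, gave 0.22 and 0.28, neither past the threshold. The other large increases in MDA-MB-231 were those of RPL31 (0.55) and RPL37A (0.54), both of the large subunit. The count of 25 in MDA-MB-231 came to 11 without siNRP1#3 replicate 1 or 2 and to 10, 14 and 13 without siNT replicates 1, 2 and 3. In HS578T the count of 2 ranged from 0 to 2, and in SUM159PT the count of 4 ranged from 2 to 4.

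In MDA-MB-231 many members were higher with the #5 sequence, in both forms. Under shNRP1#5, 50 of 82 members were higher and 0 lower than in shNT (8.79% of all genes were called higher and 11.9% lower), and all 82 were on the higher side, with a median of 0.40 beside 0.02 over all genes. The median difference from the shNT mean was 0.40, 0.43 and 0.40 in the 3 samples, and in each of them all 82 members stood above that mean. For 79 of 82 members every shNRP1#5 sample exceeded every shNT sample in TPM, which held for 20.3% of genes at 1 TPM or more. Under siNRP1#5, 57 members were higher and 0 lower (14.4% and 14.9% of all genes), with a median of 0.43 beside 0.01 over all genes and of 0.29, 0.69 and 0.36 in the samples. Here 27 of 82 members lay wholly above siNT in TPM, beside 8.92% of genes, which is fewer than the 38 of siNRP1#3 beside 18.3%. The count under shNRP1#5 came to 21 and 25 without shNRP1#5 replicates 2 and 3 and to 21 and 18 without shNT replicates 2 and 3. Under siNRP1#5 it came to 30 without siNRP1#5 replicate 2 and to 35 without siNT replicate 1.

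RPS27A, made as a fusion of ubiquitin and the small subunit protein eS31, held 1539, 1303 and 1535 TPM in MDA-MB-231 shNT and 2071, 2218 and 2097 TPM in shNRP1#5, without overlap (log2 fold change 0.61, SE 0.16, edgeR adjusted p = 0.0124). In siNRP1#5 it held 2837, 2462 and 1467 TPM beside 1823, 1431 and 1502 TPM in siNT, where replicate 3 overlapped the controls and the fitted change was 0.74 (adjusted p = 0.00183). The first of these calls was lost without shNRP1#5 replicate 2 or shNT replicate 2. RPL24, a late-joining protein of the subunit interface, showed the same arrangement, with 1449, 1218 and 1246 TPM in shNT, 1793, 2034 and 1895 TPM in shNRP1#5, 1586, 1549 and 1296 TPM in siNT and 2181, 2315 and 1445 TPM in siNRP1#5. Its changes were 0.61 and 0.65 (edgeR adjusted p = 0.00733 and 0.0026). RPL38, known for its part in the translation of Hox mRNAs, was separated in both, with 1445, 1444 and 1336 TPM in shNT and 2026, 2027 and 2022 TPM in shNRP1#5, 1479.8, 1543 and 1577 TPM in siNT and 2056, 2356 and 1816 TPM in siNRP1#5. It rose by 0.57 and 0.67 (edgeR adjusted p = 0.00424 and 0.000549). RPL34 rose by 0.51 and 0.86 (adjusted p = 0.00665 and 3.51e-05), the latter the largest increase of a member under siNRP1#5 in this line, followed by RPS24 (0.78) and RPS27A. RPS27A, RPL24, RPL38 and RPL34 begin with the TOP motif at the starts shown above, while RPS27A and RPL34 also had a listed start without it.

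The largest increases under shNRP1#5 were those of RPL22L1 (0.89), RPS7 (0.73) and RPL15 (0.66). RPL15, needed for the processing of pre-ribosomal RNA, held 3628, 3607 and 3508 TPM in shNT and 4999.9, 5174 and 5049 TPM in shNRP1#5 (edgeR adjusted p = 0.00181). RPL22L1 held 77.2, 43.3 and 57.6 TPM and 96.9, 124 and 98.3 TPM (adjusted p = 0.0182), a call that was lost without shNRP1#5 replicate 2 or shNT replicate 2 or 3. RPS6, the substrate of S6 kinase, was called in this comparison alone of the 12, with 1693, 1415 and 1451 TPM in shNT and 1875, 2138 and 2103 TPM in shNRP1#5 (log2 fold change 0.50, SE 0.14, edgeR adjusted p = 0.0185). RPSA, which also serves as a laminin receptor, rose from 3157, 2619.7 and 2593 TPM to 3909, 3844 and 3996 TPM (log2 fold change 0.55, SE 0.14, edgeR adjusted p = 0.00939), and RPS2 from 3313, 2978 and 2781 TPM to 4292, 4171 and 4385 TPM (log2 fold change 0.61, SE 0.15, edgeR adjusted p = 0.00755). The call of RPS6 was lost without shNRP1#5 replicate 2 or 3 or shNT replicate 2 or 3, and that of RPSA without shNT replicate 3. The median change was 0.39 over 50 large subunit genes and 0.44 over 32 small subunit genes. It was 0.39 over the 47 with the TOP motif at a listed start and 0.44 over the 19 with a listed start but no motif exactly there.

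**Figure D4:**
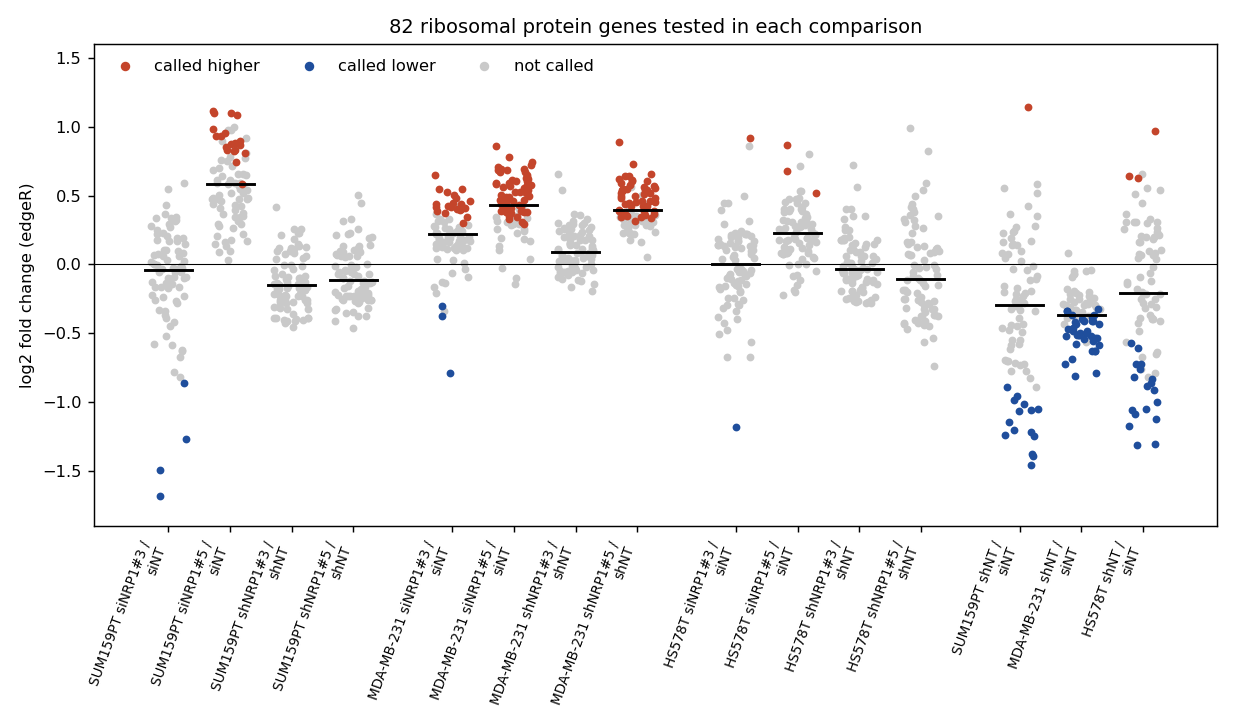
edgeR log2 fold change (y axis) of the 82 ribosomal protein genes tested in each of 12 knockdown comparisons and in shNT against siNT (x axis). Points are genes, red where called higher, blue where called lower and grey otherwise, and bars are medians. In MDA-MB-231 the medians of siNRP1#5 and shNRP1#5 lie at 0.43 and 0.40 and that of shNT against siNT at -0.36.

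In SUM159PT siNRP1#5, 19 members were called higher and 0 lower (9% and 8.89% of all genes). By edgeR all 82 were on the higher side, with a median of 0.59 beside 0.01 over all genes. In TPM 66 of the 82 were higher and 16 lower, with a median of 0.24 beside -0.17 over genes at 1 TPM or more. The count of 19 rested on replicate 2, in which the median difference from siNT was 0.94, against 0.16 in replicate 3. Without replicate 2 only 1 member was called and the median was 0.12, without replicate 3 41 members were called, and without siNT replicate 1 or 3 4 were called. RPL35, a protein at the exit tunnel with 11 pyrimidines at its start, was high in both samples, at 6938 and 6163 TPM beside 3837, 3525 and 4327 TPM in siNT (log2 fold change 1.09, SE 0.21, edgeR adjusted p = 0.00357). RPS27A, with the largest fitted change, held 5158 and 2221 TPM beside 2676, 1900.4 and 2406 TPM, so that replicate 3 lay among the controls (log2 fold change 1.11, SE 0.34, edgeR adjusted p = 0.0325). RPL22L1 and RPS7 followed, at 1.10 and 1.10, and of these RPS7 held 4976 and 3124 TPM beside 2659, 2168 and 2542 TPM. The calls of RPS27A, RPL22L1 and RPS7 were lost without replicate 2, and that of RPL22L1 also without replicate 3, and those of RPS27A and RPL22L1 also without siNT replicate 1 or 2.

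HS578T siNRP1#5, the group with the largest share of another line's markers, had 3 members higher and 0 lower (10.1% and 8.53% of all genes) and a median of 0.23 beside 0.03 over all genes. After the reads of the other lines were subtracted, 10 members were higher and the median was 0.48. The samples differed in direction, with medians of 0.38, -0.23 and 0.45 against siNT, the low value being that of replicate 2. RPS24 held 1242, 1159 and 512 TPM in siNT and 1302, 1827 and 1749.5 TPM in siNRP1#5 (log2 fold change 0.87, SE 0.30, edgeR adjusted p = 0.0497), RPL11 held 1807, 1255 and 1101 TPM and 1909.5, 2122 and 2219.8 TPM (log2 fold change 0.68, SE 0.20, edgeR adjusted p = 0.0298), and RPL14, a large subunit protein, rose by 0.52. The siNRP1#5 samples lay above all siNT samples for these genes except for the lowest RPL14 value, and each call was lost when single libraries were left out, so that 0 to 2 members were called. RPL8, by comparison, held 10363, 11494 and 11951 TPM and 13149, 9676 and 10787 TPM, with 0.10.

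No member passed the edgeR threshold in the remaining shRNA comparisons. In SUM159PT shNRP1#3 the median was -0.15, 3 members had an unadjusted p under 0.05 and DESeq2 called 0 (1.4% of all genes were called, 0.339% higher and 1.06% lower by edgeR). In SUM159PT shNRP1#5 the median was -0.11, 0 members had an unadjusted p under 0.05 and DESeq2 called 0 (5.94% of all genes were called, 3.24% higher and 2.7% lower). In MDA-MB-231 shNRP1#3 the median was 0.09, with 8 members at an unadjusted p under 0.05 and 1 called by DESeq2 (3.65% of all genes were called, 1.46% higher and 2.19% lower). In HS578T shNRP1#3 the median was -0.04, with 0 at an unadjusted p under 0.05 and 0 called by DESeq2 (0.0356% of all genes were called, 0.00509% higher and 0.0305% lower), and without its replicate 1 the median was -0.29. In HS578T shNRP1#5 the median was -0.10, with 3 at an unadjusted p under 0.05 and 2 called by DESeq2 (0.946% of all genes were called, 0.275% higher and 0.671% lower). The HS578T shNRP1#5 samples stood apart from each other, at medians of 0.31, -0.36 and -0.36 against shNT. In TPM, all knockdown samples exceeded all shNT samples for 24 members in MDA-MB-231 shNRP1#3 (14.2% of genes at 1 TPM or more) and 22 in HS578T shNRP1#5 (18.6%). They lay below all shNT samples for 13 members in SUM159PT shNRP1#3 (8.08% of genes) and 21 in SUM159PT shNRP1#5 (10.2%). The opposite separation was found for 0, 4, 8 and 2 members in the same order, beside 16.2%, 7.59%, 17% and 16.9% of genes at 1 TPM or more. For HS578T shNRP1#5 the median of the members was 0.10 on the TPM scale, where that of the genes was 0.19.

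**Figure D5:**
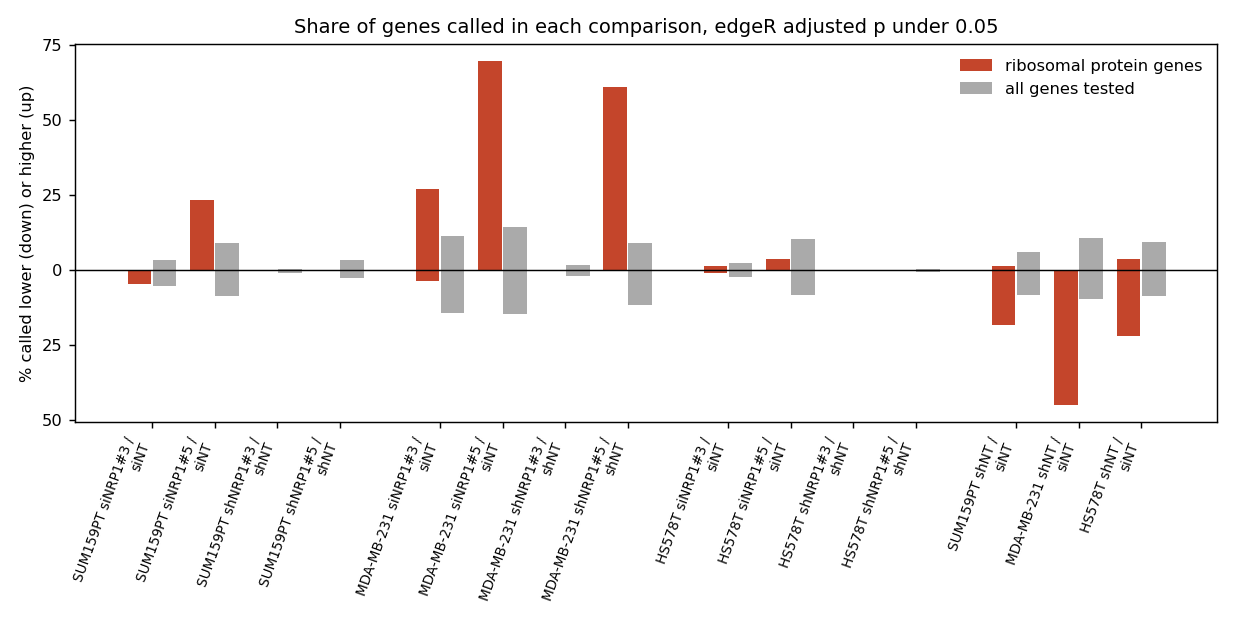
Share of the 82 ribosomal protein genes tested (red) and of all genes tested (grey) that edgeR called higher (above the line) or lower (below the line), in percent, for each comparison (x axis). The red bars exceed the grey ones most in MDA-MB-231 siNRP1#5 and shNRP1#5, and downwards in MDA-MB-231 shNT against siNT.

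Whether effects differed was tested directly. The difference between the shNRP1#5 and the siNRP1#5 effect was past the threshold for 1 member in SUM159PT (2.51% of all genes were called, 1.54% higher and 0.962% lower), for 0 in MDA-MB-231 (23.7%; unadjusted p under 0.05 for 5 members, 2 called by DESeq2) and for 0 in HS578T (0.854%; 1 and 0). The member was RPL35, which held 4215, 4303 and 4633 TPM in SUM159PT shNT and 3844, 3727 and 4052 TPM in shNRP1#5, and whose shRNA effect of -0.25 was lower than its siRNA effect of 1.09 by a log2 difference of -1.34 (SE 0.29, edgeR adjusted p = 0.0293). The count was 0 without shNRP1#5 replicate 1 or 2, shNT replicate 1 or 3, siNRP1#5 replicate 2 or siNT replicate 1, 5 without siNT replicate 2 and 17 without siNRP1#5 replicate 3. In MDA-MB-231 it was 12, 4 and 2 without siNRP1#5 replicates 1, 2 and 3 and 1 without shNT replicate 1. Across the lines, the shNRP1#5 effect differed for 3 members (3.81% of all genes), RPLP0, RPSA and RPS2. RPLP0, the base of the stalk, gave 0.39 in MDA-MB-231, -0.41 in SUM159PT and -0.73 in HS578T (edgeR F test, adjusted p = 0.0244). RPSA gave 0.55, -0.35 and -0.56 (adjusted p = 0.0253) and RPS2 0.61, -0.32 and -0.53 (adjusted p = 0.0376). Of these 9 changes, those in MDA-MB-231 passed the threshold in their own line. The siNRP1#5 effect differed for 0 members (18.2% of all genes, 4 members at an unadjusted p under 0.05) and the shNRP1#3 effect for 0 (0.747%, 2 members). DESeq2 was not run for the F tests. With the other line's reads subtracted, RPLP0 and RPSA passed for shNRP1#5 and RPS2 did not.

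Counted over the 12 knockdown comparisons, 73 members were called higher in at least 1, 4 were called lower in at least 1 and 8 were called in none. The matching share of all genes called in at least 1 was not computed. Single knockdown comparisons called 0.0356% (HS578T shNRP1#3) to 29.4% (MDA-MB-231 siNRP1#5) of all genes. RPL26L1 was called higher in 5, and RPL11, RPL24, RPL34, RPL38 and RPS27A in 4. RPL26L1 was on the higher side in all 12, between 0.14 and 0.92. So were several other members, among them RPL26, RPL34, RPL31 and RPS7. In SUM159PT siNRP1#5 the calls of RPL26L1, RPL24, RPL34, RPL38 and RPS27A were lost without replicate 2, where edgeR gave adjusted p of 0.596, 0.168, 0.615, 0.251 and 0.833. RPL26L1 was also lost without siNRP1#5 replicate 2 in MDA-MB-231 and, in shNRP1#5 of that line, without shNRP1#5 replicate 2 or 3 or shNT replicate 2 or 3. The calls of RPL24, RPL38 and RPS27A in MDA-MB-231 siNRP1#3 were each lost without 2 or 3 of the single libraries. RPL11, of the complex that binds MDM2, was called in HS578T siNRP1#5 and in MDA-MB-231 siNRP1#3 (0.44), siNRP1#5 (0.58) and shNRP1#5 (0.64), whereas its partner RPL5 was called in MDA-MB-231 shNRP1#5 (0.48) only. The RPL5 call was lost whichever library was left out except shNT replicate 1, and the siNRP1#3 call of RPL11 whichever was left out except siNRP1#3 replicate 3. RPL32, which the study used as the reference transcript of its RT-qPCR, was higher in MDA-MB-231 siNRP1#5 (log2 fold change 0.57, SE 0.12, edgeR adjusted p = 0.00188), in MDA-MB-231 shNRP1#5 (0.46, adjusted p = 0.0132) and in SUM159PT siNRP1#5 (0.89, adjusted p = 0.0391). It held 3251, 3494 and 3175 TPM in MDA-MB-231 siNT and 3927, 4678 and 3875 TPM in siNRP1#5, and 3089, 3074 and 2950.1 TPM in shNT and 3831, 4314 and 3924 TPM in shNRP1#5, without overlap. In SUM159PT siNRP1#5 it held 5402 and 3307 TPM beside 2997, 3293 and 2615 TPM. Its other 9 knockdown comparisons gave -0.15 to 0.39, none past the threshold. The SUM159PT call was lost without siNRP1#5 replicate 2 or siNT replicate 1 or 3, and the shNRP1#5 call without shNRP1#5 replicate 2 or shNT replicate 3.

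Of the stalk proteins, RPLP2 rose in MDA-MB-231 siNRP1#3 and siNRP1#5 (0.42 and 0.63), RPLP0 in MDA-MB-231 shNRP1#5 (0.39) and RPLP1 in no knockdown comparison. Of 9 members mutated in Diamond-Blackfan anaemia, 6 rose in MDA-MB-231 siNRP1#5, among them RPS19, RPS10, RPS7, RPL11 and RPS24, by 0.53 to 0.78. In shNRP1#5 of the same line 7 rose, among them RPS10, RPS7, RPS26, RPL5, RPL11 and RPL35A, by 0.45 to 0.73. Over all 82 members tested, 69.5% were called higher in siNRP1#5 and 61.0% in shNRP1#5 of this line. The RPLP0 call was lost when any of the 6 libraries compared was left out, and also when replicate number was a block (adjusted p = 0.0511) and with RLE scaling (0.0593).

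Transcript types were examined last. Of the 862 member transcripts, the protein-coding ones took 84.0% to 86.8% of the members' TPM in each sample, transcripts with a retained intron 8.67% to 10.0% and targets of nonsense-mediated decay 1.18% to 2.06%. For 80 members and 4 knockdown treatments the percent of the gene's TPM outside protein-coding transcripts was compared by an exact permutation test within cell lines, and 0 of 320 tests passed after adjustment, while 20, 13, 4 and 6 members had an unadjusted p under 0.05 under siNRP1#3, siNRP1#5, shNRP1#3 and shNRP1#5. The smallest adjusted p was 0.0686. RPS12 was among the members with this value, under siNRP1#3, at 9.22% beside 7.28%, higher in 9 of 9 samples. Of the 80 members, RPL22L1 varied most, between 7.77% and 76.8% of its TPM over the samples, with 72.8% ± 5.48 (SD, n = 3) in HS578T siNRP1#3 and 10.4% ± 2.32 (SD, n = 3) in SUM159PT shNT.

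Genes that work with the ribosomal proteins are given by lists. Of 59 ribosome biogenesis factors, 30 were higher and 0 lower in MDA-MB-231 shNRP1#5 (median 0.48), where 8.79% of all genes were called higher and 11.9% lower. In MDA-MB-231 siNRP1#5 9 were higher and 1 lower (median 0.22; 14.4% and 14.9% of all genes), and in SUM159PT siNRP1#5 34 and 0 (1.10; 9% and 8.89%). With 1 library left out, the number higher ran from 10 to 28, 7 to 17 and 21 to 40 in these comparisons, the 21 being the value without SUM159PT siNRP1#5 replicate 2. DDX10, a nucleolar helicase, was called higher in 5 knockdown comparisons, from 0.90 in MDA-MB-231 siNRP1#3 to 1.36 in SUM159PT siNRP1#5. In shNT against siNT the factors differed from the members in SUM159PT, where 31 of 59 factors were higher and 0 lower beside 5.96% and 8.45% of all genes, and in HS578T, where 17 were higher and 2 lower beside 9.14% and 8.8%. In MDA-MB-231 19 factors were lower and 0 higher beside 9.85% and 10.7%, the direction of the members there. With 1 library left out, these counts of 31, 17 and 19 ran from 6 to 32, 7 to 19 and 8 to 25. Of 40 translation factors, 13 were higher and 1 lower in MDA-MB-231 shNRP1#5 (median 0.31), 8 and 0 in MDA-MB-231 siNRP1#5 (0.16) and 13 and 0 in SUM159PT siNRP1#5 (0.49), beside the shares of all genes just given. The numbers higher ran from 0 to 9, 4 to 14 and 7 to 15 with 1 library left out, the 7 without SUM159PT siNRP1#5 replicate 2. EIF3B, a subunit of the initiation factor eIF3, rose by 0.52 in MDA-MB-231 siNRP1#3, 0.88 in siNRP1#5 and 1.11 in SUM159PT siNRP1#5. Of 4 other ribosomal genes, 3 rose in both #5 comparisons of MDA-MB-231, among them FAU and RACK1, by 0.55 and 0.38 in siNRP1#5 and 0.50 and 0.34 in shNRP1#5. Of all genes, 14.4% and 8.79% were called higher in these comparisons. With 1 library left out, the number higher ran from 1 to 4 in siNRP1#5 and from 0 to 2 in shNRP1#5.

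Of 15 genes of RNA polymerase I transcription, 4 rose and 0 fell in MDA-MB-231 shNRP1#5 (8.79% and 11.9% of all genes), among them TAF1D (0.52) and POLR1C (0.46). In SUM159PT siNRP1#5 3 rose and 0 fell (9% and 8.89%), and in MDA-MB-231 siNRP1#5 0 rose and 2 fell (14.4% and 14.9%). With 1 library left out, 1 to 4 rose in MDA-MB-231 shNRP1#5. In SUM159PT siNRP1#5 1 rose without siNT replicate 1 or 3, and the median of 0.48 became 0.40 without siNRP1#5 replicate 2. Of 15 regulators of ribosome supply and its surveillance that were tested in each of these lines, 6 rose in HS578T siNRP1#5 (10.1% of all genes) and 4 rose and 4 fell in MDA-MB-231 siNRP1#3 (11.4% and 14.3%). In HS578T siNRP1#5 4 were higher after the other line's reads were subtracted, and 1 to 4 with 1 library left out. MDM2, the ubiquitin ligase bound by RPL5 and RPL11, fell under siNRP1#3 and siNRP1#5 in SUM159PT (-1.63 and -1.80) and MDA-MB-231 (-1.03 and -1.37), and rose in MDA-MB-231 shNRP1#5 (0.74) and in SUM159PT shNRP1#3 and shNRP1#5 (0.93 and 0.94). ATF4, which drives amino acid supply, rose in HS578T siNRP1#3 (0.74) and siNRP1#5 (0.66) and in MDA-MB-231 siNRP1#3 (0.50) and shNRP1#5 (0.42). Of 77 mitochondrial ribosomal protein genes, 29 were higher and 0 lower in MDA-MB-231 shNRP1#5 (median 0.37) and 25 and 3 in MDA-MB-231 siNRP1#5 (0.26). In SUM159PT siNRP1#5 43 were higher and 1 lower (0.73). The shares of all genes called in these comparisons are those given above. In SUM159PT siNRP1#3 0 were higher and 9 lower (-0.10), where 3.16% of all genes were higher and 5.5% lower. With 1 library left out, the 29, 25 and 43 higher ran from 11 to 23, 10 to 39 and 24 to 41, and the 9 lower from 3 to 9.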

How the data were processed

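The study sequenced poly-A RNA of 52 samples in stranded TruSeq libraries on an MGI DNBSEQ-G400, with the samples spread over flow cells and lanes. Per the study's methods and the submitters' processing notes, the authors trimmed reads with Trim Galore 0.6.5, checked them with FastQC 0.11.9, aligned them with STAR 2.7.2b to GRCh38 (hg38) and quantified genes and transcripts with RSEM 1.3.3. The deposited expected counts are RSEM estimates that divide reads shared between genes, as with pseudogenes, and were rounded here to whole numbers. The deposited TPM values are scaled by the authors to transcript length and to the same sum in every sample. No column was left without a sample.

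The members were the protein-coding rows whose name fits the naming rule. Differences were tested on rounded counts with edgeR 4.0.16 (R 4.3.3, limma 3.58.1) after its filter on low counts, with TMM scaling, trended dispersion and the robust quasi-likelihood test, 1 model per cell line with a mean per group for the knockdown, shNT against siNT and #5 sequence comparisons, and 1 model of all samples with 18 means for cell lines and F tests. Fold changes were those of the edgeR fit, for which no prior count was set. A prior count of 2 was used only for log2 CPM of single samples, which gave the sample medians and replicate correlations. P-values were adjusted by Benjamini-Hochberg over all genes, and a gene was called at an adjusted p under 0.05. The p-values measure the spread between these samples, which are passages or repeats of a culture and may be technical. No replicates were copies, since their lowest chi-square per gene was 12.3. Transcript types were compared per gene at 10 TPM or more by a two-sided exact permutation test within cell lines, adjusted over the 320 tests (scipy 1.17.1, pandas 2.3.3, Python 3.11.15), and figures were drawn with matplotlib 3.10.9. Start sites were those of RefSeq on GRCh38.p14, matched by symbol. The fits were tested on simulated data.

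Replicate numbers are shared between groups. Among comparisons with 3 pairs, samples with the same number deviated together, with every correlation above 0.1, in SUM159PT siNRP1#3 and shNRP1#3, MDA-MB-231 siNRP1#5 and HS578T shNRP1#5 against their controls. In SUM159PT siNRP1#5 and HS578T shNRP1#3, which had 2 pairs, both correlations were above 0.1 but were too few to settle a pairing. Alternatives were RLE scaling, TMM without the members, no filter on low counts, the replicate block, pseudogene counts added to their member, DESeq2 1.42.0 and leaving out each sample. In libraries whose markers of another line stood at 1% or more, that share of the other line's NT profile was also subtracted. Medians were also taken from log2 ratios of group mean TPM, without TMM. The subtraction, the TPM scale, and the alternatives of the difference and F tests, were chosen after seeing the data.

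The members and gene lists were chosen with earlier results of these data known. Genes were named by a rule, as the 5 highest and 5 lowest members, up to 3 members per direction and comparison with the largest called change, up to 6 members called most often, and genes of set roles (paralogues, the MDM2 binders RPL5 and RPL11, the stalk, RPS6, RPSA, RPS27A, the reference RPL32 and Diamond-Blackfan genes), and outside the members NRP1 and up to 3 genes per list (ribosome biogenesis, translation factors, RNA polymerase I transcription, other ribosomal genes, regulators). RPL10A, RPL23A and the snoRNA genes were named after their values or positions were seen. Some genes that meet the rule are not reported here.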

Additional observations from a re-analysis of the deposited data

Results flagged for a closer look

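The effect on 5 members differed between cell lines or between forms of the #5 sequence when the difference itself was tested with edgeR. In SUM159PT the effect of shNRP1#5 on RPL35 was lower than that of siNRP1#5, with an adjusted p of 0.0293, and the difference rested on single libraries as given above. Under siNRP1#3 the decrease of RPS12 differed between the cell lines, with an adjusted p of 0.0232. Under shNRP1#5 the effects on RPLP0, RPSA and RPS2 differed between the cell lines, with adjusted p of 0.0244, 0.0253 and 0.0376, and all of them were positive in MDA-MB-231 and negative in the other lines. Groups held 2 or 3 samples, so that no sample was tested for standing apart from its group.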

How the results depend on the processing

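The counts for SUM159PT shNRP1#3, SUM159PT shNRP1#5 and HS578T shNRP1#3 stayed at 0, and the cell line counts stayed within 1.5 times, under every alternative run. Pseudogene counts added to their member moved no count past that limit. With DESeq2, 1 member was called in MDA-MB-231 shNRP1#3, 5 in HS578T siNRP1#5 and 2 in HS578T shNRP1#5. With no filter on low counts, 2 were called in MDA-MB-231 shNRP1#3, 2 in HS578T shNRP1#5, 3 in the F test of siNRP1#3 and 1 in that of siNRP1#5. With the other line's reads subtracted, an alternative chosen after seeing the data, 10 were called in HS578T siNRP1#5. For the difference of the #5 forms, whose alternatives were also chosen then, SUM159PT gave 2 with no filter and 6 with DESeq2, and MDA-MB-231 gave 2 with DESeq2 and 1 with RLE scaling, TMM without members, no filter and reads subtracted. With the replicate block, 25 members were called in shNT against siNT of SUM159PT, and 2 and 1 in the #5 difference of SUM159PT and MDA-MB-231, and no other count moved by over 1.5 times. The numbers did not pair the shNT and siNT samples of SUM159PT by the check used here.

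With 1 library left out, the counts ran from 2 to 4 in SUM159PT siNRP1#3, 1 to 41 in siNRP1#5, 2 to 16 in shNT against siNT and 0 to 17 in the #5 difference. In MDA-MB-231 they ran from 10 to 24, 30 to 65, 18 to 44 in shNRP1#5, 17 to 34 and 0 to 12 in the same order, and in HS578T from 0 to 2 in siNRP1#3, 0 to 2 in siNRP1#5 and 2 to 20 in shNT against siNT. The median change ran from -0.16 to 0.11 in SUM159PT siNRP1#3, 0.12 to 0.93 in siNRP1#5, -0.36 to -0.03 in shNRP1#3 and -0.18 to -0.04 in shNRP1#5. In MDA-MB-231 it ran from 0.18 to 0.28, 0.30 to 0.54, 0.05 to 0.13 and 0.37 to 0.45 in the same order, and in HS578T from -0.08 to 0.09, 0.12 to 0.42, -0.29 to 0.15 and -0.36 to 0.01. On the TPM scale, an alternative chosen after seeing the data, the median of the members was 0.22 in MDA-MB-231 siNRP1#5 and -0.012 in SUM159PT shNRP1#5, and between the lines 0.58 for HS578T and 0.46 for SUM159PT against MDA-MB-231 and 0.19 for HS578T against SUM159PT. Its sign differed from that of edgeR in SUM159PT siNRP1#3 (0.10), HS578T shNRP1#3 (0.07) and HS578T shNRP1#5 (0.10), where the medians over genes were 0.08, 0.10 and 0.19. By counts, the members took a median of 8.41%, 6.77% and 12.0% in SUM159PT, MDA-MB-231 and HS578T, and with nuclear protein-coding genes as the denominator 29.3% of TPM in HS578T. With transcript expected counts, 2 members passed the transcript type test. No call of a named member reversed, 25 were lost with no filter, 4 with reads subtracted, 2 each with RLE scaling, TMM without members and the replicate block, and 0 with DESeq2. Leaving out single samples in the transcript type test and in the F tests was not run. Depth limited only RPL3L and RPL10L among the members, TPM shares depend on all other genes, and groups of 2 and 3 samples limit the precision.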
